A study of Mus musculus with 6 samples.

Results

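Transcripts of the colony stimulating factors and of their receptor chains were examined in macrophages sorted from Day 3 skin wounds of young and aged mice. The 8 genes were chosen by gene family, with aged-against-young values of these same samples already known. They comprise the 3 ligand genes Csf1, Csf2 and Csf3 and the 5 receptor genes Csf1r, Csf2ra, Csf2rb, Csf2rb2 and Csf3r. All 8 of 8 genes were found by symbol among the 15168 genes of the deposited table, and all 8 were among the 11878 genes that passed the filter on low counts. Because the choice of genes rested on the comparison of the ages, the differences between aged and young samples are given for these 8 genes as a description. Where the genes past a threshold are counted, the count is descriptive too and is no evidence of a difference.

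The study addressed how age alters macrophages of healing skin, and sequenced the RNA of 3 young and 3 aged samples. The young group held female wild type C57BL/6J mice labelled as 12 weeks old, and the aged group female wild type mice of the same strain labelled as 24 months old, with no transgene in either group. All mice were anaesthetised with isoflurane, received full-thickness excisional wounds on the back and were given buprenorphine for pain, and the wounds were taken on Day 3 and digested to single cells. Live cells positive for CD45, CD11b, F4/80 and CD64 were sorted straight into lysis buffer, and their cDNA was amplified with a low-input kit before sequencing. The sorting panel had no antibody to exclude Ly6G+ neutrophils, according to the study's methods. The labels carry a set letter (A, B or C) for each sample, and neither the labels nor the methods used here state whether a sample was 1 mouse or a pool, so the errors below measure the spread between samples only. The samples held 15270103 to 17927483 expected counts each, and 1 count was worth 0.0553 to 0.0701 CPM (counts scaled to library size, with library sizes adjusted by the trimmed mean of M values, TMM).

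Colony stimulating factors are secreted proteins that keep myeloid cells alive and direct their growth and maturation. M-CSF, the product of Csf1, binds a receptor tyrosine kinase encoded by Csf1r on which most macrophages depend. GM-CSF, the product of Csf2, binds an alpha chain encoded by Csf2ra that pairs with the signalling beta common chain encoded by Csf2rb, and G-CSF, the product of Csf3, binds a receptor encoded by Csf3r that is best known on neutrophils and their precursors. Mice also have Csf2rb2, a neighbour of Csf2rb whose product is a beta chain for interleukin-3. In injured skin these factors are known to come from keratinocytes, fibroblasts, endothelial cells and lymphocytes as well as from macrophages, and in bulk RNA more cells of a type and more RNA per cell cannot be told apart.

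The ligand transcripts Csf2 and Csf3 stood much higher in aged than in young macrophages, and Csf1 somewhat higher. Among the receptors, Csf2rb and Csf2rb2 stood higher in the aged samples, while the values of Csf1r and Csf3r overlapped between the ages. Counted by the rule applied to the whole table (edgeR adjusted p-value under 0.05 and over 2-fold), 4 of the 8 genes fell past it, all of them higher in aged macrophages (Csf2, Csf3, Csf2rb and Csf2rb2). The count was 2 without young B, young C, aged A or aged C, since Csf2rb and Csf2rb2 then fell short of it. Over all genes tested, 4.59% were past the same thresholds in the higher direction and 4.2% in the lower direction, and nothing is read from this comparison, since the genes were chosen on that contrast. In 6 of the 8 genes every aged sample lay above every young sample, and in 0 every aged sample lay below, against 19.2% and 19.0% of all genes tested. The median log2 fold change was 0.98 over the 8 genes and -0.02 over all genes tested.

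**Figure D1:**
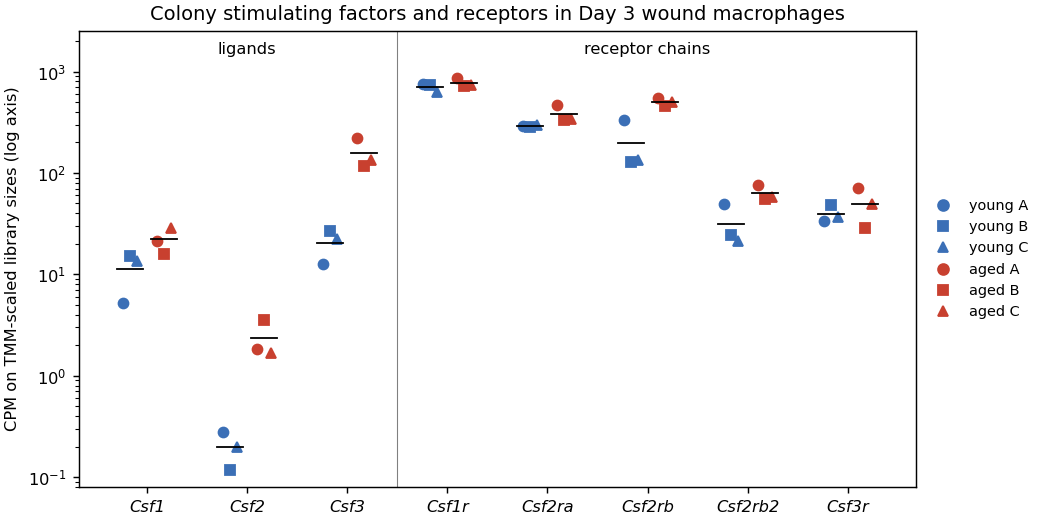
TMM-scaled CPM of the 8 genes (log axis) in each of the 3 young (blue) and 3 aged (red) samples, with the set letter as the shape of the point and the group mean as a black line. Csf2 and Csf3 show a wide gap between the ages, young A stands apart in Csf1, Csf2rb and Csf2rb2, and the groups overlap in Csf1r and Csf3r.

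Csf3, the gene of G-CSF, lies on chromosome 11 (GRCm38, chr11:98701263-98703629, plus strand). Its values were 12.7, 26.8 and 22.1 CPM in young A, B and C and 223.6, 116 and 133 CPM in aged A, B and C. The groups did not overlap, and the lowest aged sample stood well above the highest young sample. The mean was 20.5 ± 7.18 CPM in the young and 157.6 ± 57.7 CPM in the aged macrophages (SD, n = 3 each), a log2 fold change of 2.94 (standard error, SE, 0.32). The underlying counts were 1020 over the young samples and 7172 over the aged samples. Their ratio per library size was 7.66, with an exact 95% interval of 7.17 to 8.18 that covers counting error only. Leaving out each sample in turn gave log2 fold changes of 2.61 to 3.19.

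Csf2, the gene of GM-CSF, lies on the same chromosome (GRCm38, chr11:54247271-54249667, minus strand) and was the scarcest of the 8 transcripts. It gave 5, 2 and 3 counts in young A, B and C and 26, 56 and 27 counts in aged A, B and C. These counts correspond to 0.28, 0.12 and 0.20 CPM in the young and 1.82, 3.57 and 1.67 CPM in the aged samples. No aged sample overlapped a young one, and aged B was the highest. The mean was 0.197 ± 0.0796 CPM in the young and 2.35 ± 1.05 CPM in the aged macrophages (SD, n = 3 each), and the fitted log2 fold change was 3.52 (SE 0.57). The ratio of the pooled counts, 109 against 10, was 11.9 per library size, with an exact 95% interval of 6.21 to 25.4 for counting error, so that the size of the difference was measured only roughly at this depth. Without aged B the log2 fold change was 3.10. The gene model overlaps that of Gm12223, an antisense transcript on the opposite strand, and whether counting was strand-aware is not given in the sources used here, so reads of Csf2 and Gm12223 cannot be told apart.

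Csf1, the gene of M-CSF, lies on chromosome 3 (GRCm38, chr3:107741048-107760469, minus strand). Its values were 5.20, 15.3 and 13.6 CPM in young A, B and C and 21.4, 16.0 and 28.9 CPM in aged A, B and C. The aged samples all lay above the young ones, but aged B exceeded young B by less than the spread of either group. The mean was 11.4 ± 5.39 CPM in the young and 22.1 ± 6.49 CPM in the aged macrophages (SD, n = 3 each), a log2 fold change of 0.96 (SE 0.36). Young A held the low end of the young group, and without it the log2 fold change was 0.62.

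The messengers of these ligands are known as short-lived, and AU-rich elements, repeats of ATTTA after the coding sequence, are the textbook site at which proteins such as tristetraprolin bind and speed their decay. In the longest coding transcript of each gene (GENCODE M21), the stretch after the coding sequence held 9 copies of ATTTA in Csf2, 6 in Csf3, 4 in Csf1 and 3 in Csf1r, overlapping copies included. In Csf2ra, Csf2rb, Csf2rb2 and Csf3r it held 0. Relative to its length this was 28.4 copies per kilobase in Csf2, 8.97 in Csf3, 1.89 in Csf1 and 1.80 in Csf1r. The longer motif TTATTTATT, of which overlapping copies were counted as well, was found 4 times in Csf2 and not in the other 7 genes, and at least 3 copies were found in 0.663% of 10411 tested genes with a coding transcript. The 30 bases with the densest repeats are shown for the 3 ligands, read 5′ to 3′ on the strand of the gene, with ATTTA in capitals, since they set the ligands apart from 4 of the receptor genes. A match of letters is a description and not a measured binding site.
Csf2 (chr11:54247329-54247358, minus strand): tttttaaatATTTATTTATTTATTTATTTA
Csf3 (chr11:98702984-98703013, plus strand): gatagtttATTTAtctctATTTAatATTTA
Csf1 (chr3:107741109-107741138, minus strand): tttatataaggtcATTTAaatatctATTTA
These windows hold 5, 3 and 2 copies of ATTTA.

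**Figure D2:**
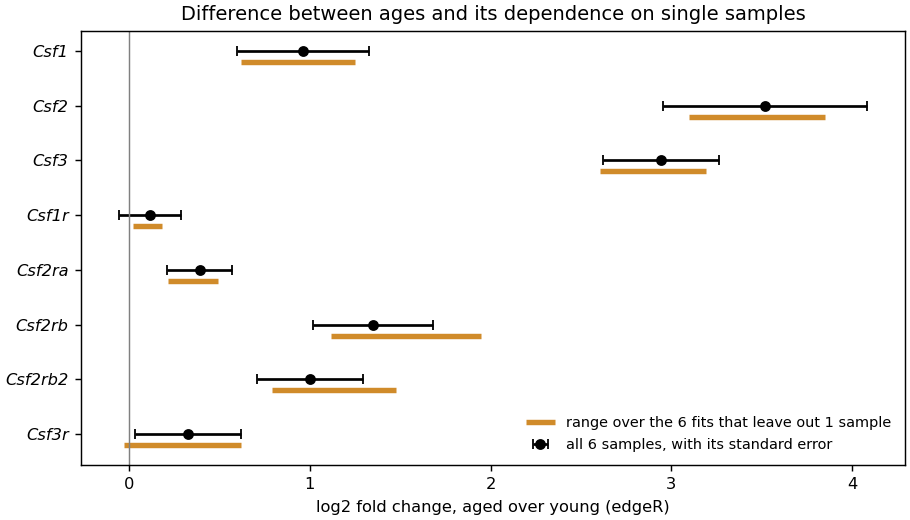
Log2 fold change of each gene (aged over young, edgeR), with its standard error in black from all 6 samples and, in orange, the range over the 6 fits that each left out 1 sample. Csf2 and Csf3 stay above 2.6 in every fit, Csf2rb reaches 1.95 without young A, and the range of Csf3r crosses 0.

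Csf2rb, the gene of the beta common chain shared by the receptors for GM-CSF, interleukin-3 and interleukin-5, lies on chromosome 15 (GRCm38, chr15:78325752-78353847, plus strand). It was measured at 331.9, 127.6 and 134 CPM in young A, B and C and at 550.2, 459 and 502 CPM in aged A, B and C. The aged samples were close to each other and above all young samples, and young A stood apart from the other young samples. The mean was 198 ± 116 CPM in the young and 503.9 ± 45.5 CPM in the aged macrophages (SD, n = 3 each), a log2 fold change of 1.35 (SE 0.33). Without young A it was 1.95, the single value among the 8 genes that moved by more than the spread between replicates when the processing or the samples were varied. Csf2rb2 lies beside it on the other strand (GRCm38, chr15:78282507-78305721, minus strand), with 20030 bases between the gene models, and each model overlaps a miRNA gene on its own strand (Mir7676-2 in Csf2rb and Mir7676-1 in Csf2rb2). Its values were 49.01, 24.2 and 21.4 CPM in the young and 76.0, 55.5 and 58.2 CPM in aged A, B and C. The pattern was that of Csf2rb at a lower level, with young A again apart. The mean was 31.5 ± 15.2 CPM in the young and 63.2 ± 11.1 CPM in the aged macrophages (SD, n = 3 each), a log2 fold change of 1.002 (SE 0.29), barely past 2-fold, and 1.47 without young A. Over the 6 fits that left out 1 sample, Csf2rb ran from 1.12 to 1.95 and Csf2rb2 from 0.79 to 1.47, and both met the rule in 2 of these 6 fits.

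The coding sequences of Csf2rb and Csf2rb2 are near copies, which bears on how far their counts can be separated. Of 2628 aligned coding bases, 2503 (95.2%) were identical, and the longest identical run was 242 bases. Windows of 50 bases were found unchanged in the other transcript for 18.4% of Csf2rb and 19.0% of Csf2rb2, and windows of 150 bases, the length of a read, for 3.47% and 3.59%. Reads from such windows could have been assigned to either gene, and how they were shared is not given in the sources used here. Csf2rb had 5.28 to 8.63 times the counts of Csf2rb2 within a library. Reads of Csf2rb assigned to Csf2rb2 could thus change the Csf2rb2 values by a larger share than that of its windows. The stretch of 120 bases within an exon that differs most is shown, with the 16 mismatched bases in capitals, because reads there can tell the genes apart.
Csf2rb (chr15:78338867-78338986, plus strand): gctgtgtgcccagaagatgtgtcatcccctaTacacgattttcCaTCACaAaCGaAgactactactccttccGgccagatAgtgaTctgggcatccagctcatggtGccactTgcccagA
Csf2rb2 (chr15:78294345-78294464, minus strand): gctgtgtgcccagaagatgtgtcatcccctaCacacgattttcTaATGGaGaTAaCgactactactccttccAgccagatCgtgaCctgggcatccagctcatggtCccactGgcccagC
Within a library the ratio of Csf2rb to Csf2rb2 counts was 6.78, 5.28 and 6.27 in young A, B and C and 7.24, 8.26 and 8.63 in aged A, B and C. Their log2 CPM had a Pearson correlation of 0.985 over the 6 samples (a description, since the points share the libraries, the age groups and in part the reads). The ratio was higher in every aged sample, although young A and aged A were close. Whether the proportion of the 2 genes differed between the ages was not tested.

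Csf2ra, the gene of the GM-CSF-binding alpha chain, lies on chromosome 19 (GRCm38, chr19:61223957-61228429, minus strand). It was measured at 290.7, 285 and 296 CPM in young A, B and C and at 468.7, 333 and 341 CPM in aged A, B and C. The young samples were almost level, the aged ones were all higher, and aged A was the highest. The mean was 290.6 ± 5.12 CPM in the young and 381 ± 76.0 CPM in the aged macrophages (SD, n = 3 each), a log2 fold change of 0.39 (SE 0.18), and 0.22 without aged A. Within a library the ratio of Csf2rb to Csf2ra counts was 1.14, 0.447 and 0.453 in young A, B and C and 1.17, 1.38 and 1.47 in aged A, B and C. The beta chain was thus higher relative to its alpha partner in each aged library than in each young one, although young A and aged A were close.

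Csf1r, the receptor of M-CSF and a defining transcript of macrophages, lies on chromosome 18 (GRCm38, chr18:61100598-61132149, plus strand). It was measured at 754, 745 and 635 CPM in young A, B and C and at 868, 713 and 731 CPM in aged A, B and C. The groups overlapped, with aged B and C below young A and B. The mean was 711.6 ± 66.3 CPM in the young and 770.8 ± 85.0 CPM in the aged macrophages (SD, n = 3 each), a log2 fold change of 0.12 (SE 0.17) that ran from 0.02 to 0.18 when single samples were left out. The gene model overlaps Hmgxb3 on the opposite strand and the miRNA gene Mir6983, whose reads could have been counted with it. Csf2ra was the steadier gene in young samples, with a coefficient of variation of 1.76% against 9.32% for Csf1r, and in aged samples the values were 20.0% and 11.0%.

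Csf3r, the receptor of G-CSF, lies on chromosome 4 (GRCm38, chr4:126024550-126044440, plus strand). It was measured at 33.7, 48.7 and 36.5 CPM in young A, B and C and at 71.9, 28.4 and 49.2 CPM in aged A, B and C. The groups overlapped, and the aged group held both the lowest and the highest sample. The mean was 39.7 ± 7.95 CPM in the young and 49.8 ± 21.7 CPM in the aged macrophages (SD, n = 3 each), a log2 fold change of 0.33 (SE 0.29). Leaving out aged A gave -0.03 and leaving out aged B gave 0.62, so no direction is given for this receptor. The summed CPM of 13 neutrophil marker genes stood at 684, 1169 and 1135 in young A, B and C and at 1512, 898 and 1511 in aged A, B and C. Within each age the sample with the highest Csf3r value was also the one with the highest neutrophil sum. Aged A and aged C, however, were nearly level in that sum but not in Csf3r. In the aged group aged B was lowest in Csf3r and in the neutrophil sum. The part of neutrophil RNA in the Csf3r values was not tested.

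**Figure D3:**
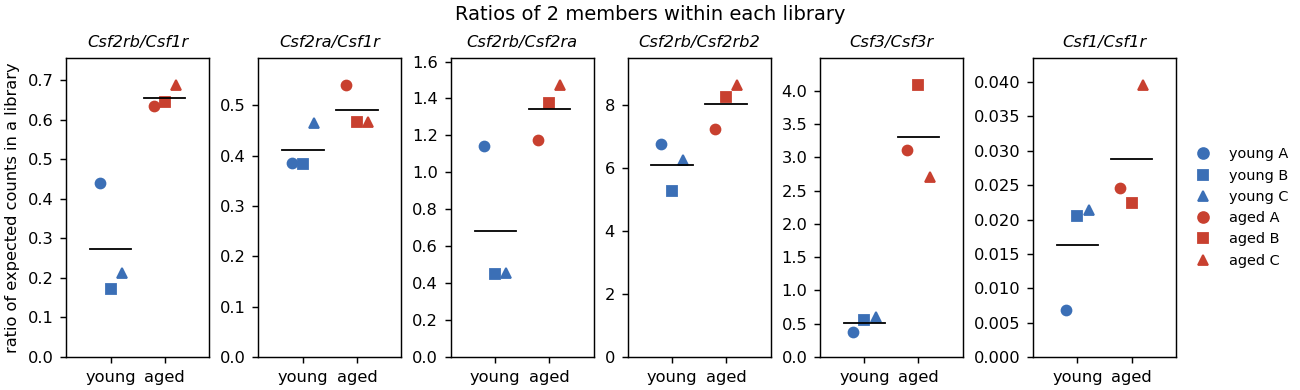
Ratio of the expected counts of 2 of the genes within the same library, a quantity that does not depend on library scaling, in 3 young (blue) and 3 aged (red) samples with the group mean as a black line; each panel has its own axis from 0. The 6 ratios shown were higher in every aged sample than in every young sample. The margin was wide for Csf3/Csf3r and narrow for Csf2ra/Csf1r, Csf2rb/Csf2ra, Csf2rb/Csf2rb2 and Csf1/Csf1r. Csf3/Csf2, which is not shown, overlapped between the ages. The ratios share genes that were chosen on this contrast, and no share over other gene pairs was computed, so their number is descriptive.

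Ratios within a library set each ligand beside its receptor without any scaling. The ratio of Csf3 to Csf3r counts was 0.375, 0.549 and 0.606 in young A, B and C and 3.11, 4.09 and 2.71 in aged A, B and C. All aged ratios lay above all young ones. Per kilobase of transcript, Csf3 against Csf3r was at 8.96 against 9.69 CPM in young A, 18.9 against 14.0 in young B and 15.7 against 10.5 in young C, so the ligand was already above its receptor in young B and C. The ratio of Csf1 to Csf1r counts was 0.00689, 0.0205 and 0.0214 in young A, B and C and 0.0246, 0.0224 and 0.0395 in aged A, B and C, with young C and aged B nearly level. Csf2rb counts stood at 0.440, 0.171 and 0.211 of the Csf1r counts in young A, B and C and at 0.634, 0.644 and 0.687 in aged A, B and C. The aged values lay within a narrow band and young A between it and the other young samples. The ratio of Csf2ra to Csf1r was 0.385, 0.383 and 0.466 in young and 0.540, 0.467 and 0.467 in aged A, B and C, so that young C was level with aged B and C. The ratio of Csf3 to Csf2 overlapped between the ages, at 128 ± 92.3 in young and 78.4 ± 45.1 in aged samples (SD, n = 3 each).

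Divided by the length of the longest coding transcript, the order of levels was alike at its top in both ages. In young macrophages Csf2ra (157 ± 2.77 CPM per kilobase, SD, n = 3) and Csf1r (151 ± 14.1) led and overlapped each other. Csf2rb followed at 40.4 ± 23.7, then Csf3 at 14.5 ± 5.08, Csf3r at 11.4 ± 2.28 and Csf2rb2 at 6.65 ± 3.21, of which Csf3 overlapped Csf3r and Csf3r overlapped Csf2rb2. Csf1 at 2.72 ± 1.29 and Csf2 at 0.247 ± 0.0995 CPM per kilobase were the lowest. In aged macrophages Csf2ra (206 ± 41.1 CPM per kilobase) and Csf1r (164 ± 18.1) again led, but Csf3 came next at 112 ± 40.9 and overlapped both Csf1r above it and Csf2rb (103 ± 9.29) below it. Csf3r at 14.3 ± 6.25, Csf2rb2 at 13.3 ± 2.35, Csf1 at 5.29 ± 1.55 and Csf2 at 2.94 ± 1.32 CPM per kilobase followed. In that lower part Csf3r overlapped Csf2rb2, and Csf1 overlapped Csf2. In young samples Csf3 lay below Csf2rb in each library, at 18.9 against 26.0 CPM per kilobase in young B, where they were closest.

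Promoter sequence, the 250 bases before the RefSeq start site (GRCm38.p6), was at hand for 5 of the 8 genes: Csf1, Csf2, Csf2ra, Csf2rb2 and Csf3r. Csf3, Csf2rb and Csf1r are named only. Letters were searched on both strands over 32851 promoters of that length. A kappaB-like motif (GGGANNNNCC) matched 3 times in Csf1, 2 of the matches overlapping, once in Csf3r and in 17.6% of all promoters. The core bound by PU.1 (GAGGAA) matched 2 times in Csf2ra, once each in Csf2rb2 and Csf3r, and in 23.3% of all promoters, and a STAT-like motif (TTCNNNGAA) matched once in Csf2rb2 and in 7.02% of all promoters. A C/EBP-like motif (TTGCNNAA, 9.56% of promoters) matched once in Csf2, and an AP-1 motif (TGANTCA, 6.75%) matched in none of the 5. The window of Csf2 ends 231 bases upstream of the start of the deposited gene model, and the bases between were not searched. The windows of Csf2ra and Csf3r run into their deposited gene models, where their GAGGAA matches lie in whole or in part. The windows of Csf1 and Csf2rb2 are shown with their matches on either strand in capitals, because they hold the kappaB-like and the STAT-like matches of the ligand and beta chain genes described above.
Csf1 (chr3:107760470-107760719, minus strand): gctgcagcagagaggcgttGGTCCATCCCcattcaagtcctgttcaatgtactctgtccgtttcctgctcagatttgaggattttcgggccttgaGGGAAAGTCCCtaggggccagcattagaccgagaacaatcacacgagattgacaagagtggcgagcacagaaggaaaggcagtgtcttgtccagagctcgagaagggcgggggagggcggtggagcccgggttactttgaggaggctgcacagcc
Csf2rb2 (chr15:78305722-78305971, minus strand): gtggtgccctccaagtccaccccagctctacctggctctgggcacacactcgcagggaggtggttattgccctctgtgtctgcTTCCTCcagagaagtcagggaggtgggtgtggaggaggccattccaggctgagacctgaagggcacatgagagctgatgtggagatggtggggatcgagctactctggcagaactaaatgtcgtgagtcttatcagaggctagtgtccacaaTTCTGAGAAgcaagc
A match describes letters only, and binding was not measured in these samples.

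The surrounding pathway was read from 103 genes in 10 groups, listed with earlier results of these data known, of which 100 were in the table and 96 were tested. Of the 96 genes, 33 were higher and 3 lower in aged macrophages at an adjusted p-value under 0.05 (edgeR quasi-likelihood test, Benjamini-Hochberg adjustment over all 11878 genes), and 60 did not pass. Over all genes tested, 9.73% were higher and 7.97% lower by the same rule. The median log2 fold change of the 96 genes was 0.49. The count of higher genes rested on single samples, with 18 without young B, 4 without young C and 12 without aged C. Jak2, Cish, Nfkb1 and Il1a stayed past the threshold in all 6 fits that left out 1 sample. By contrast, Stat3, Ptpn6, Myc, Ets1 and Il1b passed in 1 of these 6 fits, and Syk, Shc1, Ywhaz, Il1rn, Cebpb, Nfatc2 and Rc3h1 in 2. Fosl1, Socs1, Osm, Bcl2l1, Runx1 and Cebpd passed in 3 of them.

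**Figure D4:**
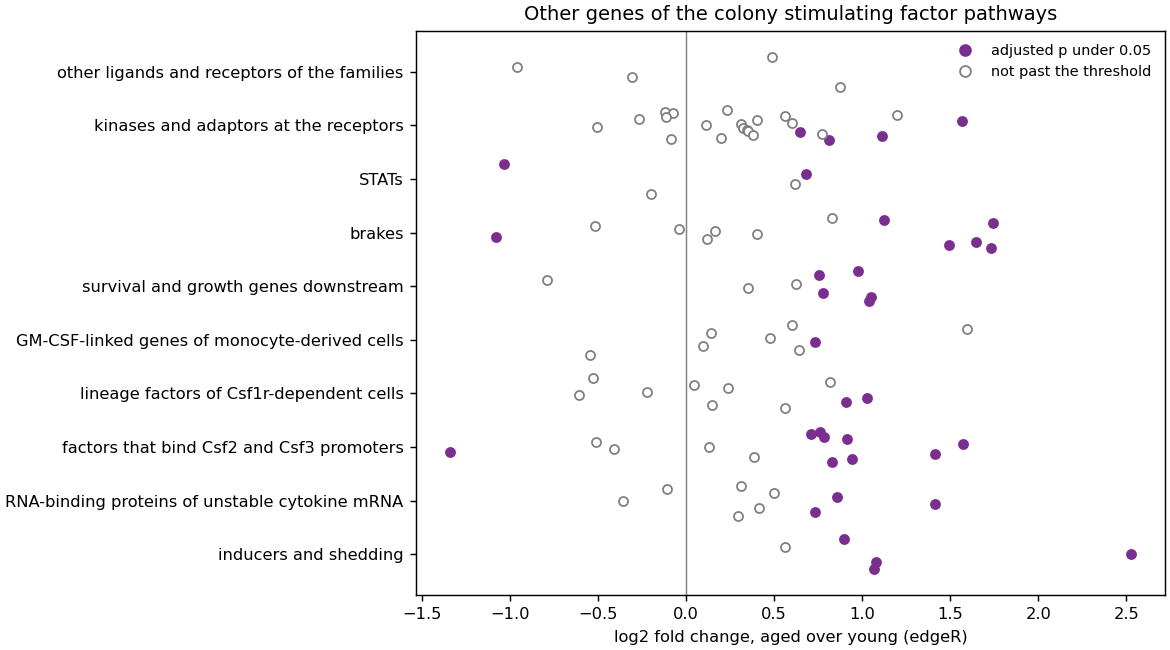
Log2 fold change (aged over young, edgeR) of the 96 tested pathway genes by group, filled in purple where the adjusted p-value was under 0.05 and open where it was not; position within a group is alphabetical. Of the filled points 33 lie above 0 and 3 below it.

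Other ligands and receptors of these families were scarce in the sorted cells. Il34, the second ligand of the M-CSF receptor, and Il3 were not among the genes of the table. Il5, Il5ra and Kitl were listed but too low to test, with means over all samples of 0.201, 0.311 and 0.402 CPM. Of the 4 genes tested 0 passed. Il3ra, the alpha chain that binds interleukin-3, was at 4.91 ± 2.20 CPM in the young and 3.96 ± 0.597 CPM in the aged samples (SD, n = 3; log2 fold change -0.31, edgeR adjusted p = 0.580), and Flt3l was at 4.41 ± 1.85 and 2.27 ± 0.947 CPM (-0.96, edgeR adjusted p = 0.128). Of the alpha chains that share the beta common chain, those of interleukin-3 and GM-CSF could thus be tested and that of interleukin-5 could not.

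Kinases and adaptors that act at the receptors gave 4 higher and 0 lower genes of 23. Jak2, the kinase bound to the beta common chain, rose from 21.1 ± 3.47 to 62.5 ± 8.40 CPM (SD, n = 3 each), a log2 fold change of 1.57 (SE 0.19, edgeR adjusted p = 0.00195). Syk, Ywhaz (a 14-3-3 protein) and Shc1 rose as well, with log2 fold changes of 1.11, 0.81 and 0.65. Ywhaz had the most CPM of the group by mean over all samples, at 917.7 ± 213 CPM in the young and 1609 ± 329 CPM in the aged samples. Tyrobp, the adaptor DAP12, was at 497 ± 46.6 and 468 ± 58.6 CPM (log2 fold change -0.09, edgeR adjusted p = 0.748). Lyn, a Src family kinase, was at 374 ± 87.3 and 568 ± 26.6 CPM and did not pass (0.60, edgeR adjusted p = 0.0541).

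Of the STAT genes, Stat3, used by the G-CSF receptor, rose from 127 ± 35.5 to 203 ± 4.22 CPM (log2 fold change 0.68, edgeR adjusted p = 0.0423). Stat5a and Stat5b, the STATs of the GM-CSF receptor, were at 8.02 ± 2.72 and 17.3 ± 4.27 CPM in the young and 12.3 ± 4.14 and 15.1 ± 3.80 CPM in the aged samples, and neither passed (log2 fold changes 0.62 and -0.20, edgeR adjusted p = 0.182 and 0.613).

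Of 12 genes that brake cytokine receptors 5 were higher and 1 was lower. Cish, a target of STAT5 that restrains the same receptors, rose from 54.6 ± 6.03 to 182 ± 31.1 CPM (SD, n = 3 each; log2 fold change 1.74, SE 0.18, edgeR adjusted p = 0.00127). Socs3, a brake on the G-CSF receptor, rose from 625 ± 242 to 2075 ± 655 CPM (1.73, SE 0.31, edgeR adjusted p = 0.00898) and had the most CPM of the group. The groups of both genes were apart in all samples. Socs1, Socs2 and Cblb (a ubiquitin ligase) rose too, with log2 fold changes of 1.65, 1.495 and 1.12. Ptpn6, the phosphatase SHP-1, fell from 198 ± 81.7 to 93.8 ± 4.37 CPM (-1.08, edgeR adjusted p = 0.0270).

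Of 8 survival and growth genes downstream of these receptors 5 were higher and 0 lower. Osm, which encodes the cytokine oncostatin M, rose from 768 ± 132 to 1594 ± 505 CPM (log2 fold change 1.05, edgeR adjusted p = 0.0206), and Bcl2l1, which encodes the survival protein Bcl-xL, from 56.1 ± 13.1 to 94.9 ± 2.41 CPM (0.76, edgeR adjusted p = 0.0238). Pim1, Bcl2a1b and Myc were the others, and Bcl2a1b belongs to a family of near-identical copies whose reads may be shared. Mcl1, with the most CPM of the group, was at 1492 ± 191 and 1901 ± 331 CPM and did not pass (0.35, edgeR adjusted p = 0.237). Of 8 tested genes linked to GM-CSF in monocyte-derived cells only Il1rn, the interleukin-1 receptor antagonist, passed, with a rise from 1433 ± 226 to 2382 ± 308 CPM (0.73, edgeR adjusted p = 0.0313). Of 10 lineage factors of Csf1r-dependent cells 2 were higher and 0 lower, among them Runx1, with a log2 fold change of 0.91. Spi1, which encodes PU.1, was at 521 ± 27.7 and 578 ± 67.9 CPM (0.15, edgeR adjusted p = 0.555).

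Factors known to bind the promoters of Csf2 and Csf3 gave 8 higher and 1 lower gene of 13. Fosl1, an AP-1 subunit, had the largest log2 fold change, with a rise from 42.8 ± 21.6 to 127 ± 47.1 CPM (log2 fold change 1.57, SE 0.36, edgeR adjusted p = 0.0200). Nfkb1 and Rela, the classical NF-kappaB pair, had log2 fold changes of 1.41 and 0.94 (edgeR adjusted p = 0.00242 and 0.00828). Relb, Ets1, Ets2, Cebpb and Cebpd were the other 5 higher genes, among which Cebpb had the most CPM of the list, at 2838 ± 444 CPM in the young and 4815 ± 746 CPM in the aged samples (0.76, edgeR adjusted p = 0.0316). Nfatc2, an NFAT transcription factor, fell from 4.10 ± 1.003 to 1.61 ± 0.395 CPM (-1.34, edgeR adjusted p = 0.0292). Fos was at 2090 ± 633 and 1464 ± 424 CPM and did not pass (-0.51, edgeR adjusted p = 0.206), so the 2 AP-1 genes named here had log2 fold changes of opposite sign.

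Of 9 genes for proteins that bind unstable cytokine messengers 3 were higher and 0 lower. Zfp36, the gene of tristetraprolin, was at 2626 ± 434 CPM in the young and 3499 ± 247 CPM in the aged samples and did not pass (log2 fold change 0.41, edgeR adjusted p = 0.155). Zc3h12a, which encodes the ribonuclease Regnase-1, rose from 17.3 ± 5.21 to 46.1 ± 15.6 CPM (1.41, edgeR adjusted p = 0.0130), and Zfp36l1, a relative of Zfp36, from 92.5 ± 12.3 to 153 ± 4.56 CPM (0.73, edgeR adjusted p = 0.0166). Rc3h1 (Roquin-1) was the other. Elavl1, whose product HuR is known to stabilise such messengers, was at 158 ± 20.8 and 196 ± 22.2 CPM (0.31, edgeR adjusted p = 0.223). Of 5 tested inducers of these ligands and proteases that shed ligand or receptor 4 were higher and 0 lower. Il1a rose from 207 ± 105 to 1192 ± 249 CPM (2.52, SE 0.38, edgeR adjusted p = 0.00436). Il1b, with the most CPM of the group, rose from 4374 ± 1415 to 9238 ± 2582 CPM (1.08, edgeR adjusted p = 0.0328). Tnf and the protease gene Adam10 also rose, with log2 fold changes of 1.07 and 0.90, and Il17a was not among the genes of the table.

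The genes whose log2 CPM moved most like each of the 8 across the samples were picked from 6203 genes by Pearson correlation over the 6 samples. These points share the age groups and libraries, so the values are descriptions. For Csf3 they were Tnfrsf9, Fpr1 and Itgam (r = 0.997, 0.995 and 0.995), of which Itgam encodes CD11b, a protein of the sort. For Csf2 they were Uso1, Med13l and Copa (0.999, 0.997 and 0.996), and for Csf1 Sgms1, Samsn1 and Map3k8 (0.984, 0.982 and 0.977). For Csf2rb they were Gosr2, Lyn and Zfp574 (0.998, 0.998 and 0.997), and for Csf2rb2 Specc1l, Klhl24 and Lpin2 (0.997, 0.996 and 0.996). For Csf2ra they were Slc2a6, Msantd3 and Gpaa1 (0.990, 0.984 and 0.980), for Csf1r Ddx5, Arfgap2 and Tlr13 (0.984, 0.977 and 0.974), and for Csf3r Fam49b, Capza2 and Tyk2 (0.988, 0.984 and 0.977). No gene appeared for more than 1 of the 8. Among the 8 themselves, the correlation of Csf2 with Csf3 was 0.875 and that of Csf1 with Csf1r was 0.14.

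Transcripts of the sort and of other cell types were read beside these values. The 4 genes of the sort were present in all samples with a summed level of 1254 to 1440 CPM in the young and 1632 to 1789 CPM in the aged samples. Itgam rose (log2 fold change 0.99, edgeR adjusted p = 0.00735) and Adgre1, the gene of F4/80, fell (-0.69, edgeR adjusted p = 0.0292, past the threshold in 2 of the 6 fits that left out 1 sample). Of 12 neutrophil markers tested 4 were higher in aged samples (Cd177, Cxcr2, Lcn2 and Retnlg) and 0 lower, with sums of 684 to 1169 CPM in the young and 898 to 1512 CPM in the aged samples. Ly6g itself was at 8.15 ± 2.47 and 8.43 ± 1.95 CPM, and Camp and Mpo were not among the genes of the table. The part of these cells in the differences of Csf2, Csf3, Csf2rb and Csf2rb2 was not tested. Aged B, with the lowest neutrophil sum of the aged samples, also had the lowest Csf3 value of the aged samples (116 CPM, above every young sample).

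**Figure D5:**
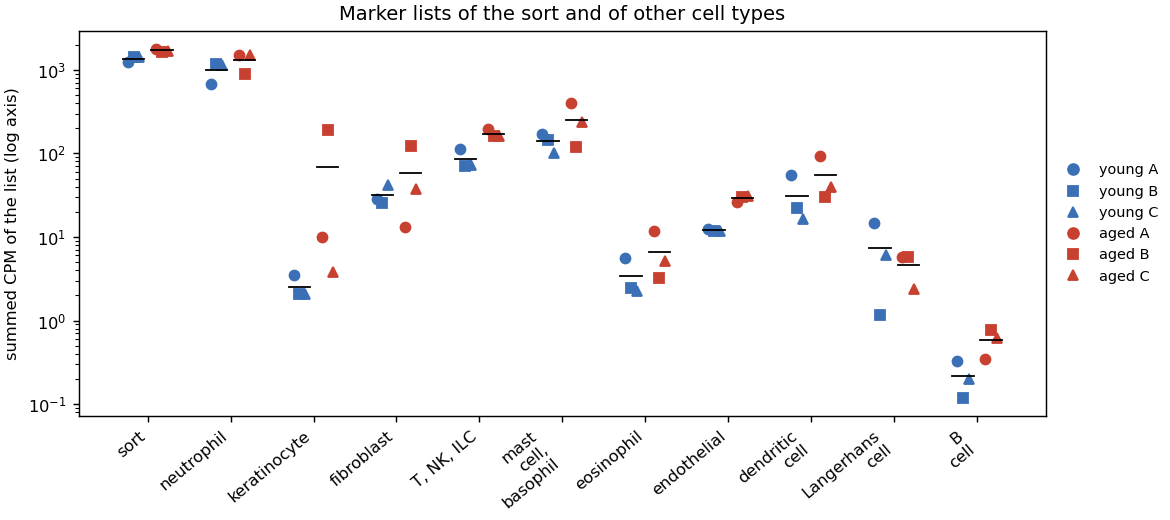
Summed TMM-scaled CPM (log axis) of marker gene lists for the sort and for other cell types in each of 3 young (blue) and 3 aged (red) samples, with the group mean as a black line. Aged B stands apart in keratinocyte (190 CPM) and fibroblast (122 CPM) markers.

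Keratinocytes, fibroblasts, endothelial cells and lymphocytes can make these ligands themselves. The sort took cells positive for CD45, CD11b, F4/80 and CD64. The study's antibody list for sorting and flow cytometry also held EpCAM, PDGFRα, CD31 and TIE2. Whether these were used to exclude cells in this sort is not stated in the text used here. Keratinocyte markers summed to 2.05 to 3.48 CPM in young samples and to 9.95, 190 and 3.77 CPM in aged A, B and C, with Krt14 at 80.2 CPM in aged B and both tested genes, Krt14 and Sfn, higher in aged samples, and fibroblast markers to 25.5 to 41.7 CPM in young samples and 13.2, 122 and 37.5 CPM in aged A, B and C, with 0 of 6 past the test. Aged B was also the sample with the highest Csf2 value (3.57 CPM, against 1.82 and 1.67 in aged A and C) and the lowest Csf3 value of the aged samples. The log2 fold changes without it were 3.10 for Csf2 and 3.13 for Csf3, and the part of keratinocyte or fibroblast RNA in the ligand values was not tested. Markers of T, natural killer and innate lymphoid cells summed to 70.8 to 112 CPM in the young and 160 to 196 CPM in the aged samples, nearly all of it from Il7r, the 1 gene of the list that rose, while Cd4 fell, Cd3e was at or below 1.19 CPM in every sample and Cd8a and Ncr1 were not in the table. Of the endothelial list, with sums of 11.8 to 12.6 CPM in the young and 25.9 to 31.1 CPM in the aged samples, Pecam1 alone rose. Mast cell and basophil markers summed to 101.9 to 172 CPM in the young and 118 to 402 CPM in the aged samples, with Hdc the only one to pass, and Cpa3, Mcpt4 and Cma1 were at 0 in aged B and C. Eosinophil markers summed to 2.25 to 5.59 and 3.18 to 11.6 CPM, Langerhans cell markers to 1.17 to 14.7 and 2.41 to 5.81 CPM, and B cell markers to at most 0.764 CPM. Of these lists 2 eosinophil genes and 1 Langerhans cell gene could be tested and 0 passed, while no B cell gene was abundant enough to test. Dendritic cell markers summed to 55.0, 22.1 and 16.4 CPM in young A, B and C and to 93.9, 30.3 and 39.9 CPM in aged A, B and C, with 0 of 5 past the test. Young A and aged A were the highest of their age in the dendritic cell sum and in Csf2rb and Csf2rb2. They were also the highest of their age in the mast cell and basophil (172 and 402 CPM) and eosinophil sums (5.59 and 11.6 CPM). The same held for T, natural killer and innate lymphoid (112 and 196 CPM) and Langerhans cell markers (14.7 and 5.81 CPM). It did not hold for neutrophil, keratinocyte, fibroblast, endothelial or B cell markers. The part of any of these cells in the receptor values was not tested.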

How the data were processed

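Bulk RNA sequencing of sorted Day 3 wound macrophages covered 3 young and 3 aged samples. Per the submitters' notes and the study's methods, the authors aligned reads with STAR 2.7.3a and quantified Ensembl transcripts of mm10 in Partek Flow, and deposited expected counts per gene without normalisation, and the lowest total of a listed gene was 10. Totals ran from 15270103 to 17927483 per sample, and intervals cover counting error only. A second table, which holds 6 columns of the authors' size-factor-scaled values and their own fold changes and p-values, was not used.

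Expected counts were rounded to integers, and edgeR 4.0.16 under R 4.3.3 was used for the test (TMM scaling, filterByExpr by age, quasi-likelihood F-test of aged against young, Benjamini-Hochberg adjustment over 11878 genes). Calls needed an adjusted p-value under 0.05 and a difference over 2-fold, and pathway genes the adjusted p-value alone. TMM-scaled library sizes gave CPM, and log2 CPM had a prior count of 2. Alternatives were DESeq2 1.42.0, its size factors in edgeR, limma 3.58.1 (voom with sample weights), no filter, at least 10 counts in every sample, a block for the set letter and the omission of each sample. The procedure was tested on simulated counts.

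The 8 genes, the pathway groups and the marker lists were chosen with earlier results of these data known. Pathway genes were named as those past the threshold with the largest and smallest log2 fold change in a group, its 2 most abundant genes and 12 fixed genes, and further genes past the threshold are named to account for the counts, chosen after their values were seen. Some genes that this rule names are not reported here. Genes most like each of the 8 came from those with a mean of at least 10 CPM. Transcripts and coordinates came from GENCODE M21 (GRCm38) and promoters from RefSeq. Python 3.11.15 and biopython 1.88 were used for sequences.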

Additional observations from a re-analysis of the deposited data

How the results depend on the processing

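Of 95 log2 fold changes of the 8 genes under other settings, 94 moved by less than the spread between replicates, and Csf2rb without young A (1.95) moved by more. No value of the 4 genes counted as past the thresholds changed sign, and Csf3r was at -0.03 without aged A. Of the fits that left out 1 sample, Csf2rb and Csf2rb2 met both thresholds in 2 of 6, those without young A and without aged B. Csf1 met them with limma-voom only. When single samples were left out, Csf2 ran from 3.10 to 3.85 and Csf3 from 2.61 to 3.19. The filter of at least 10 counts in every sample gave no value for Csf2 and 0.99 for Csf2rb2. These fits refit the contrast on which the genes were chosen, so they describe its spread and lend it no support.

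The number of genes called over the whole table was 1044 and lay between 213 (without young C) and 1503 (without young A) when single samples were left out, with 521 without young B and 475 without aged C. It was 2103 without the 2-fold threshold and 939 to 1463 under the other tools, scalings and filters. The 33 higher pathway genes became 4 without young C and 36 without young A, with 18 without young B and 12 without aged C. The 3 lower pathway genes became 5 with limma-voom and 0 to 3 when single samples were left out, with 0 without young C and 1 each without young B, aged A and aged C. The causes were not tested.

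With the set letter as a replicate block, 1056 genes were called, with 35 higher and 4 lower pathway genes. Deviations of same-letter samples correlated at 0.181 (A), -0.0206 (B) and 0.114 (C), so the letters were not taken to pair the samples. Csf2 is limited by depth, with 2 to 5 counts in each young sample.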
